A study of Bos taurus with 94 samples.

Results

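The upper oviduct of the cow was set against the lining of its uterus. Of 94 RNA sequencing libraries of Hereford cattle tissues, 4 were chosen by tissue label: ipsilateral ampulla, contralateral ampulla, ipsilateral infundibulum and contralateral infundibulum. They were compared with the 3 endometrium libraries, which are labelled caruncular, intercaruncular ipsilateral and intercaruncular contralateral. All 7 carry the breed label Hereford and the age label adult, and no treatment or genotype is named. The labels of the infundibulum and intercaruncular libraries add CL to the side, an abbreviation they do not spell out. RNA came from snap-frozen whole tissue pieces, so each library mixes all cells of its segment. No animal is named, so every p-value is set against the spread of single libraries, some of which may share an animal. The caruncular library names no side.

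The infundibulum is the funnel that takes up the egg, and the ampulla is the wide segment behind it where fertilization takes place. Both are lined by ciliated cells, which move the egg, and by secretory cells, which bathe it and the sperm. The isthmus joins the oviduct to the uterine horn. Ruminant endometrium carries caruncles, aglandular patches where the placenta attaches, and glandular tissue between them.

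Expression was given as FPKM, a count of fragments per transcript length and library size, for 24616 Ensembl gene identifiers. The identifiers could be paired with no gene name, so the tissue labels could not be checked against named cell type markers, and genes are described by their values and by where else they were expressed. A gene was tested if 3 or more of the 7 libraries reached an FPKM of 1, which 14065 genes did. FPKM summed to 657371 and 696945 in the ampulla, to 644159 and 687021 in the infundibulum, and to between 596448 and 630749 in the endometrium. The read depth behind these totals is unknown. Over the tested genes, Spearman's rho between pairs of libraries ran from 0.906 to 0.980 within ampulla and infundibulum (6 pairs), from 0.750 to 0.861 between them and the endometrium (12 pairs), and from 0.977 to 0.984 within the endometrium (3 pairs). No libraries of the 7 held identical values. The lowest of the oviduct values, 0.906, lay between ipsilateral ampulla and ipsilateral infundibulum.

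Ampulla and infundibulum differed from endometrium in 2802 genes. Of the genes tested, 1136 (8.08%) were higher and 1666 (11.8%) were lower in ampulla and infundibulum, at a Benjamini-Hochberg adjusted p under 0.05 in limma and a difference of at least 1 in log2(FPKM + 1). The other 11263 genes (80.1%) were not called. The 4 libraries did not overlap the 3 endometrium libraries in 1127 of the 1136 higher genes and in 1630 of the 1666 lower genes, and in 6508 of all genes tested. Which direction held more genes depended on the scaling. Higher genes were 40.5% of those called with FPKM as deposited, 32.8% with FPKM rescaled to equal totals (999 higher, 2050 lower) and 52.6% with quantile normalization (1401 higher, 1261 lower). The median difference over all tested genes was -0.16 with FPKM as deposited, -0.28 with equal totals and -0.03 with quantile normalization. In bulk tissue, fewer cells of a type and less RNA per cell cannot be told apart.

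The middle of the higher genes lay further from 0 than that of the lower genes. Past a difference of 3 or 5 the lower genes were more in number, but they were also the larger set. The median difference of the higher genes was 1.74 on the log2 scale (25th to 75th percentile 1.30 to 2.43), while the median size of the difference in the lower genes was 1.49 (1.19 to 2.0). A difference of at least 2 was reached by 443 higher genes (39%) and 416 lower genes (25%). At 3 or more the counts were 130 of the 1136 higher and 142 of the 1666 lower genes, and at 5 or more 15 higher and 28 lower genes. The 2 genes with the largest increase, at 11.04 and 10.97, lay further from 0 than the largest decrease, at -7.92. The folds are on the log2(FPKM + 1) scale and so understate the change of genes of low expression.

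**Figure D1:**
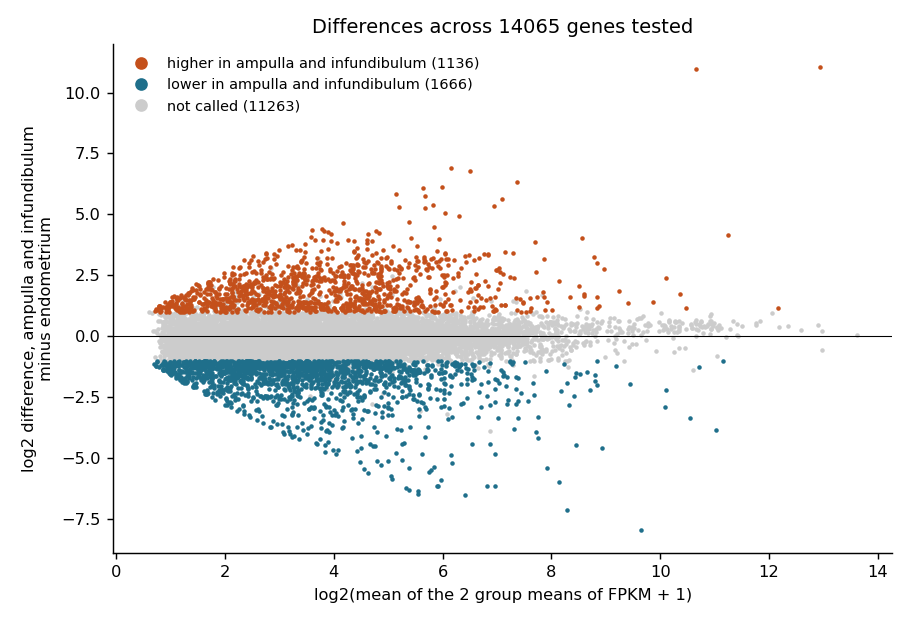
Difference between ampulla and infundibulum and endometrium (log2, vertical axis) against the level of each gene (log2 of the mean of the 2 group means of FPKM + 1, horizontal axis) for the 14065 genes tested; colours mark the 1136 higher, 1666 lower and 11263 uncalled genes. The 2 genes at the top right, with differences near 11, stand above all other called genes.

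The 2 genes with the largest increase were expressed at high level in the upper oviduct and at a low level in every other part of the tract. ENSBTAG00000005973 had 15895 and 29373 FPKM in ipsilateral and contralateral ampulla, 1703 and 15461 FPKM in ipsilateral and contralateral infundibulum, and 3.42, 4.93 and 3.76 FPKM in caruncular, intercaruncular ipsilateral and intercaruncular contralateral endometrium. The lowest oviduct value, that of the ipsilateral infundibulum, was far above all endometrium values, and the groups did not overlap. The mean was 15608 ± 11298 FPKM in ampulla and infundibulum (SD, n = 4) and 4.04 ± 0.79 FPKM in endometrium (SD, n = 3). The difference was 11.04 ± 0.84 on the log2 scale (SE; limma, Benjamini-Hochberg adjusted p = 6.7e-05), and 11.92 without the ipsilateral infundibulum. This 1 gene made up 2.42% and 4.21% of all FPKM in ipsilateral and contralateral ampulla, and 0.264% and 2.25% in ipsilateral and contralateral infundibulum. In both segments the contralateral library was the higher one. The gene was not called between ampulla and infundibulum (2.07 ± 0.83, SE; limma, Benjamini-Hochberg adjusted p = 0.14).

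Its high level ended at the isthmus. ENSBTAG00000005973 had 4.94 FPKM in the ipsilateral and 4.13 FPKM in the contralateral isthmus, 3.0 FPKM in myometrium, 3.30 FPKM in cervical lining and 7.83 FPKM in the vaginal fornix. Among the 82 libraries outside the female tract the median was 2.04 FPKM and the highest value was 19.9 FPKM, in the urethra. Trachea had 2.65 FPKM, nasal mucosa 6.61 FPKM and bull testis 9.07 FPKM. The lowest oviduct library thus exceeded every library outside ampulla and infundibulum.

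ENSBTAG00000024849 had 3149 and 3930 FPKM in ipsilateral and contralateral ampulla, 2082 and 3700 FPKM in ipsilateral and contralateral infundibulum, and 0.0958, 0.558 and 1.24 FPKM in the endometrium libraries in the same order as above. All 4 oviduct libraries were high, within a narrower range than for the previous gene, and again the contralateral library of each segment was the higher one. The mean was 3215 ± 824 FPKM in ampulla and infundibulum (SD, n = 4) and 0.63 ± 0.57 FPKM in endometrium (SD, n = 3). The difference was 10.97 ± 0.29 on the log2 scale (SE; limma, Benjamini-Hochberg adjusted p = 1.1e-06). Between ampulla and infundibulum it was 0.34 ± 0.35 (SE; adjusted p = 0.55 in the same limma model). Both isthmus libraries were below 1 FPKM, at 0.0466 FPKM on the ipsilateral and 0.293 FPKM on the contralateral side. The myometrium was listed at 0, the cervical lining had 0.326 FPKM and the vaginal fornix 1.70 FPKM. Of the 82 libraries outside the tract 7 reached 1 FPKM, with the highest values in urethra (5.25 FPKM) and bull testis (4.97 FPKM), and 41 were listed at 0. Nasal mucosa had 0.489 FPKM and trachea 0.110 FPKM.

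The 2 genes with the largest decrease were strongly expressed in endometrium, and they differed from each other in the isthmus. ENSBTAG00000004796 had 11.0 and 6.78 FPKM in ipsilateral and contralateral ampulla, 2.61 and 3.64 FPKM in ipsilateral and contralateral infundibulum, and 984.4, 1876 and 1899 FPKM in caruncular, intercaruncular ipsilateral and intercaruncular contralateral endometrium. The groups did not overlap, and caruncular was the lowest endometrium library. The mean was 6.01 ± 3.78 FPKM in ampulla and infundibulum (SD, n = 4) and 1586 ± 522 FPKM in endometrium (SD, n = 3). The difference was -7.92 ± 0.42 on the log2 scale (SE; limma, Benjamini-Hochberg adjusted p = 1.1e-05). Between ampulla and infundibulum it was 1.24 ± 0.34 (SE; limma adjusted p = 0.053), which was not called. Both isthmus libraries were far above ampulla and infundibulum, with 3869 FPKM on the ipsilateral and 640.3 FPKM on the contralateral side. Cervical lining had 783.6 FPKM and vaginal fornix 597.8 FPKM, while myometrium had 6.86 FPKM. Outside the tract the gene was highest in the body of the epididymis (572.5 FPKM) and the vas deferens (499.9 FPKM). It was listed at 0 in bull testis and nasal mucosa, and trachea had 0.544 FPKM.

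ENSBTAG00000021119 had 6.72 and 3.23 FPKM in ipsilateral and contralateral ampulla, 3.91 and 1.40 FPKM in ipsilateral and contralateral infundibulum, and 577.6, 613.4 and 658.7 FPKM in the endometrium libraries in the same order. The endometrium libraries lay close together, and the ipsilateral library was the higher one in each oviduct segment. The mean was 3.81 ± 2.21 FPKM in ampulla and infundibulum (SD, n = 4) and 616.6 ± 40.7 FPKM in endometrium (SD, n = 3). The difference was -7.12 ± 0.34 on the log2 scale (SE; limma, Benjamini-Hochberg adjusted p = 7.6e-06), and between ampulla and infundibulum 0.74 ± 0.36 (SE; adjusted p = 0.20). The isthmus libraries differed by side, with 386.2 FPKM ipsilateral and 5.53 FPKM contralateral. Myometrium had 25 FPKM, cervical lining 6.17 FPKM and vaginal fornix 32.7 FPKM. Outside the tract no library passed 2.97 FPKM, the value of a follicle library, and 47 of 82 were listed at 0. Bull testis had 0.180 FPKM, and nasal mucosa and trachea were listed at 0.

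**Figure D2:**
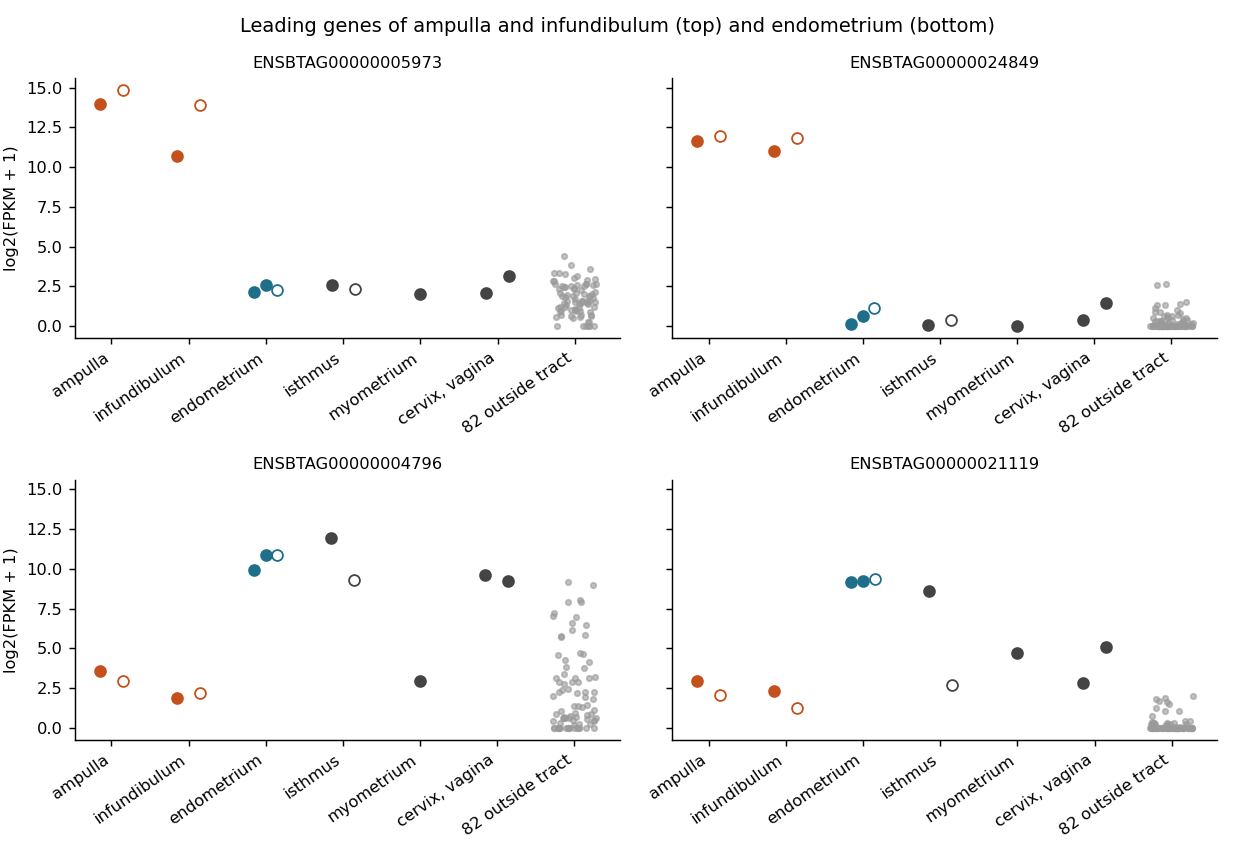
Level of the 4 named genes (log2(FPKM + 1), vertical axes) in each library, with 1 point a library; open points are contralateral, filled points are ipsilateral or carry no side. The 2 upper genes are high in ampulla and infundibulum and not in isthmus, and the 2 lower genes are high in endometrium and in the ipsilateral isthmus.

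The higher genes took up several times more of the oviduct's FPKM than of the endometrium's. They held 12.4% and 14.2% of all FPKM in ipsilateral and contralateral ampulla, 14.9% and 13.4% in ipsilateral and contralateral infundibulum, and 2.87%, 3.02% and 2.98% in the endometrium libraries. The lower genes held 3.56% and 2.96% in ampulla, 2.59% and 2.83% in infundibulum, and 13.2%, 12.9% and 13.0% in endometrium. These shares describe the genes chosen by the comparison and are no test of it. The median level of a higher gene in log2(FPKM + 1) was 3.97 and 3.86 in ampulla, 4.86 and 4.25 in infundibulum, and 2.02, 2.23 and 2.09 in endometrium. Of the 4 oviduct libraries, the ipsilateral infundibulum was thus the highest for the typical higher gene, although it was the lowest for both leading genes.

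A small set of genes was near absence on 1 side. Of the higher genes, 26 had at least 1 FPKM in all 4 ampulla and infundibulum libraries and under 0.1 FPKM in all 3 endometrium libraries. The reverse held for 47 of the lower genes. Of the 26 oviduct genes, 2 reached 1 FPKM in the ipsilateral isthmus, 6 in the contralateral isthmus, 1 in myometrium, 5 in cervical lining and 4 in vaginal fornix. Of the 47 endometrium genes, 22 reached it in the ipsilateral isthmus and 5 in the contralateral isthmus, 6 in myometrium, 13 in cervical lining and 14 in vaginal fornix. Neither set was confined to the tract: the median gene reached 1 FPKM in 12.5 of the 82 outside libraries for the oviduct set and in 11 for the endometrium set, and 1 gene of each set did so in none.

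Ampulla or infundibulum held the highest value of all 94 libraries for 378 of the higher genes (33.3%), against 5.91% of all genes tested. Endometrium held it for 210 of the lower genes (12.6%), against 2.70% of all genes tested. The genes were called for high values in these same libraries, which fixes part of both shares, so they carry no test. In 22 higher genes every ampulla and infundibulum library was more than 4 times above every library outside the tract, and 14 lower genes had this relation in endometrium.

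The isthmus, which was in neither group, did not follow the rest of the oviduct for the higher genes. To place a library, its level was expressed for each gene on a scale where 0 is the endometrium mean and 1 the mean of ampulla and infundibulum in log2(FPKM + 1). Over the 1136 higher genes the median position was 0.83 and 0.75 in ipsilateral and contralateral ampulla and 1.40 and 1.05 in ipsilateral and contralateral infundibulum. It was 0.19 in the contralateral and -0.07 in the ipsilateral isthmus, close to the endometrium. Over all genes tested the median difference from endometrium was -0.21 in the contralateral and -0.69 in the ipsilateral isthmus. The contralateral isthmus was above all 3 endometrium libraries in 62.2% of the higher genes, against 25.6% of all genes tested. The ipsilateral isthmus was so in 35.4%, against 27.0% of all genes tested. The call favours genes low in endometrium, so such a rise was not particular to the isthmus. The posterior pituitary was above the endometrium libraries in 52.0%, against 25.9%, but the myometrium in 22.6%, against 21.3%.

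For the lower genes the isthmus stood near ampulla and infundibulum, as did tissues outside the tract. The median position over the 1666 lower genes was 0.78 in the contralateral and 1.02 in the ipsilateral isthmus, beside 0.87 and 0.98 in ipsilateral and contralateral ampulla. The contralateral isthmus was below all 3 endometrium libraries in 90% of the lower genes, against 52.7% of all genes tested, and the ipsilateral in 81.9%, against 63.6%. Low values were not particular to the oviduct here. The myometrium stood at 0.65, the cervical lining at 0.83 and the vaginal fornix at 0.69. Outside the tract, lung stood at 0.69, trachea at 1.04, liver at 1.17 and thalamus at 1.22. The low median of the ipsilateral isthmus over all genes tested, given above, applies here too.

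The 2 isthmus libraries went apart in the leading genes. The library labelled ipsilateral isthmus held the 2 endometrial genes above at 3869 and 386.2 FPKM, while the contralateral library had 640.3 and 5.53 FPKM. Whether the ipsilateral piece held uterine tissue was not tested. With both isthmus libraries added to the oviduct side, 1089 genes were called, 130 higher and 959 lower. Most of the higher genes above were thus not called with the isthmus included. The contralateral isthmus was not added alone, so this fit cannot tell the part of each isthmus library.

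**Figure D3:**
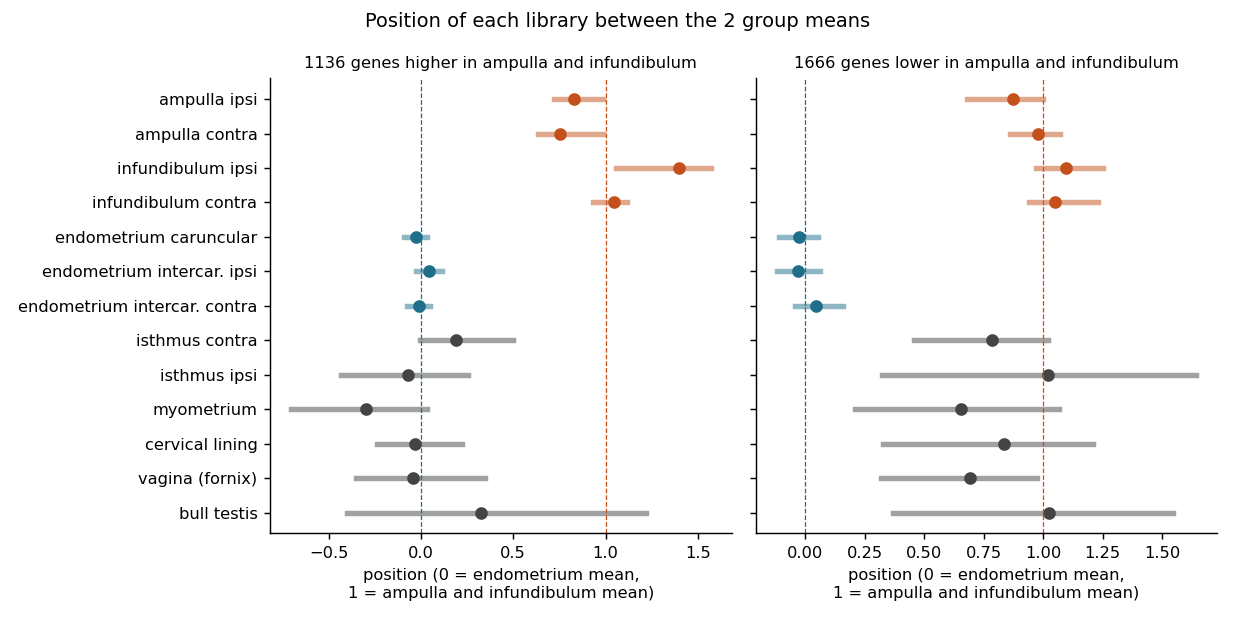
Position of each library between the endometrium mean (0) and the mean of ampulla and infundibulum (1) on the log2(FPKM + 1) scale, as the median (point) and 25th to 75th percentile (bar) over the 1136 higher genes (left) and the 1666 lower genes (right). On the left the isthmus points lie at 0.19 and -0.07, near the endometrium. On the right they lie at 0.78 and 1.02, near ampulla and infundibulum but also near bull testis (1.02). The positions of the 7 compared libraries are fixed in part by the choice of genes.

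An order of levels along the tube was counted with each isthmus library in turn. With the contralateral isthmus, for 563 of the 1136 higher genes (49.6%) the level fell in the order infundibulum, ampulla, isthmus, endometrium, against 1026 of all 14065 genes tested (7.29%). The opposite order held for 587 of the 1666 lower genes (35.2%), against 1208 of all genes tested (8.59%). With the ipsilateral isthmus the falling order held for 308 higher genes (27.1%), against 484 of all genes tested (3.44%), and the opposite order for 277 lower genes (16.6%), against 425 (3.02%). The call against endometrium fixes part of these orders, so the shares carry no test. The relation of the 2 oviduct segments is the step that the call does not fix: infundibulum was above ampulla in 77.7% of the higher genes, in 30.0% of the lower genes and in 55.0% of all genes tested.

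Ampulla and infundibulum were then compared with each other, 2 libraries each. The endometrium libraries were in the same model and gave part of the spread. In limma, 1088 genes (7.74%) were called at a Benjamini-Hochberg adjusted p under 0.05 and a difference of at least 1, of which 552 were higher in ampulla and 536 in infundibulum. Among the 1136 genes higher than in endometrium, 39 (3.43%) were higher in ampulla and 295 (26.0%) in infundibulum. Among the 1666 genes lower than in endometrium, 153 (9.18%) were higher in ampulla and 11 (0.66%) in infundibulum. Over all genes tested the shares were 3.92% higher in ampulla and 3.81% higher in infundibulum.

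Differences from endometrium were also taken for each segment. For the higher genes the median difference from endometrium was 1.45 in ampulla and 2.06 in infundibulum, and for the lower genes -1.36 in ampulla and -1.68 in infundibulum. The ampulla and infundibulum values share the same endometrium libraries. The 295 genes higher in infundibulum had a median difference from endometrium of 1.54 in ampulla and 3.18 in infundibulum. The same genes stood 0.03 above endometrium in the ipsilateral isthmus, 0.28 above it in the contralateral isthmus and 1.36 above it in bull testis. The 39 genes higher in ampulla stood 2.96 above endometrium in ampulla, 1.12 in infundibulum, 1.47 in the contralateral isthmus and 0.09 in bull testis, and their median in the ipsilateral isthmus was -0.02. The 39 genes stood further above endometrium than the 295 did in the contralateral isthmus but not in the ipsilateral one.

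The count between the segments, and its split by direction, rested on single libraries. Without the ipsilateral ampulla 69 genes were called, 56 higher in ampulla and 13 in infundibulum. Without the contralateral ampulla the total was 355, with 299 higher in ampulla and 56 in infundibulum. Without the ipsilateral infundibulum it was 729, with 529 higher in ampulla and 200 in infundibulum, and without the contralateral infundibulum 1965, with 697 higher in ampulla and 1268 in infundibulum. With the spread of all 94 libraries 131 genes were called, 16 higher in ampulla and 115 in infundibulum, so the balance of the directions changed with the libraries and the spread used. In each fit with a library left out, 1 segment had a single library, which was assumed to vary like the others.

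**Figure D4:**
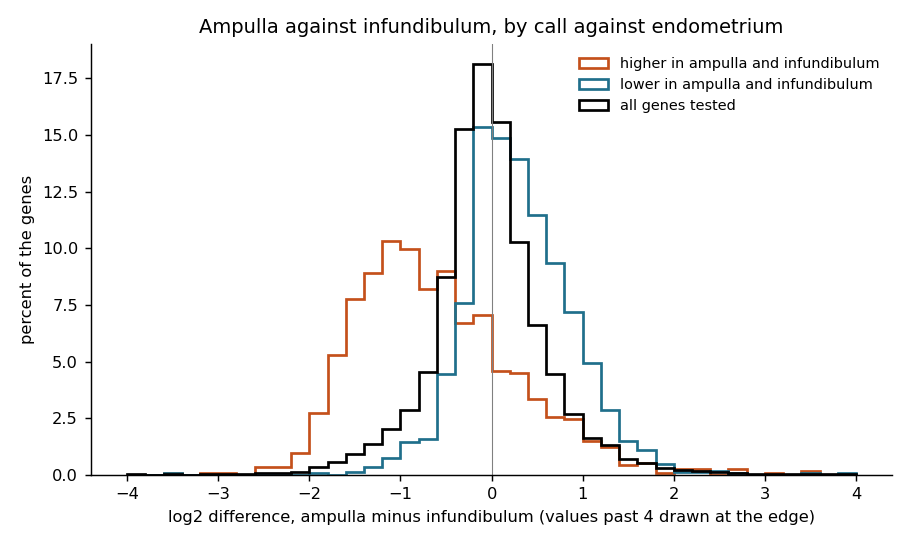
Difference between ampulla and infundibulum (log2, horizontal axis; positive means higher in ampulla) as a share of genes (percent, vertical axis), for genes higher than in endometrium, genes lower than in endometrium and all genes tested. The higher genes are shifted to negative values, towards infundibulum, and the lower genes slightly to positive values; infundibulum was above ampulla in 77.7% of the higher and 30.0% of the lower genes.

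The sides of the tract were set side by side within each segment. Over the higher genes the median difference of ipsilateral minus contralateral was 0.13 in ampulla, 0.64 in infundibulum, -0.61 in isthmus and 0.10 in intercaruncular endometrium. Over the lower genes it was 0.20, 0.00, -0.37 and 0.13 in the same order. In the isthmus the median over all genes tested was also below 0, at -0.45. Each side of a segment is 1 library, so these differences have no replicate. With side as a covariate, in the 6 libraries that name one, 703 genes were higher and 1222 lower in ampulla and infundibulum.

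Without gene names, the called genes were described by the tissue outside the female tract that led their expression. A gene was given to a tissue group when that group's mean was the highest of 32 outside groups and at least 2 log2 units above their median. Lists with 100 or more tested genes were kept, which left 20. Bull testis, thyroid, esophagus, cancer eye, gall bladder and fetal testis are each a single library, while some other groups are means of several. A single library can reach such a lead more easily than a mean, so the lists kept and their sizes depend on library number. Genes led by bull testis, a tissue rich in flagellated germ cells, were the largest list. The list held 2581 genes, of which 1553 passed the filter, and of these 337 were higher (21.7%) and 137 lower (8.82%) in ampulla and infundibulum, against 8.08% and 11.8% of all genes tested. Here and in the lists below the filter raises the share of higher genes. A gene absent from endometrium passes it only where the oviduct expresses the gene. Without the filter 308 genes of the list were higher and 132 lower, beside 1047 and 1605 of all 19482 genes then tested. The 337 genes were 29.7% of all higher genes, and their median difference was 2.05. Over the 1553 genes the median difference was -0.01, beside -0.16 over all tested genes, so the list's middle gene stood close to 0. Between the segments, 3 of the 337 were higher in ampulla and 155 in infundibulum, beside 39 (3.43%) and 295 (26.0%) of all 1136 higher genes. As given above, the calls between the segments rested on single libraries.

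Higher genes were also frequent in lists led by thyroid (39 of 166, 23.5%) and esophagus (41 of 204, 20.1%), with 14.5% and 15.7% lower. The list led by the group labelled cancer eye split evenly, with 27 higher and 27 lower of 127. At the other end, genes led by gall bladder were lower in 106 of 331 (32.0%) and higher in 18 (5.44%). Lower genes were also frequent in the lists led by inner eye (32 of 108, 29.6%) and fetal testis (66 of 227, 29.1%). The fetal testis list thus did not follow that of the bull testis, although the difference between the lists was not tested. Genes led by lymphoid tissue and blood, which mark immune cells in bulk tissue, were rarely higher, in 4 of 122 (3.28%), and were lower in 14 (11.5%), a share near the 11.8% of all genes tested.

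**Figure D5:**
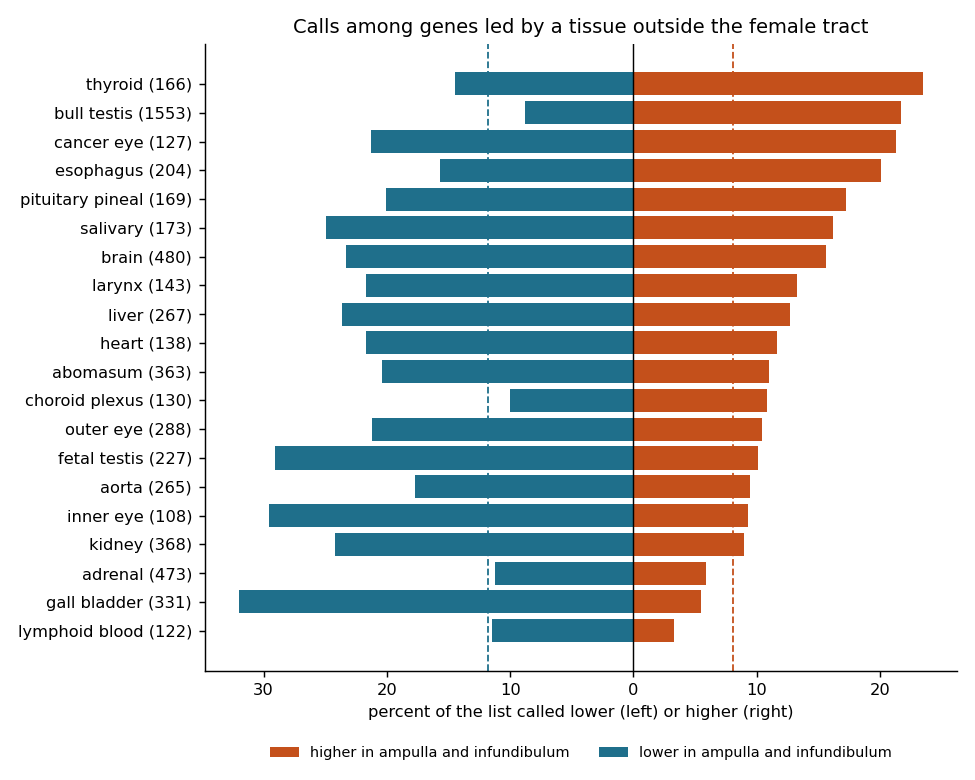
Share of the tested genes of each list (percent, horizontal axis) that were higher (right) or lower (left) in ampulla and infundibulum, for 20 lists of genes led by 1 tissue group outside the female tract, with the number tested in brackets; dashed lines mark the shares over all genes tested, 8.08% higher and 11.8% lower. Bull testis shows 21.7% higher and 8.82% lower, gall bladder 5.44% higher and 32.0% lower.

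Motile cilia and flagella are built from many shared proteins, and besides sperm they are carried by the lining of the nose and airways. Genes at least 1 log2 unit above the outside median in bull testis, nasal mucosa and lung together numbered 97, of which 84 were tested. Of these, 31 (36.9%) were higher and 9 (10.7%) lower in ampulla and infundibulum, with a median difference of 0.45 beside -0.16 for all tested genes. The mean level of the list in log2(FPKM + 1) was 3.18 and 3.14 in ipsilateral and contralateral ampulla, 3.52 and 3.41 in ipsilateral and contralateral infundibulum, and 2.75, 2.87 and 2.78 in the endometrium libraries. All 4 oviduct libraries were above all 3 endometrium libraries, and the infundibulum was above the ampulla. Whether the members of the list are ciliary genes could not be read from the identifiers. Genes above the outside median in nasal mucosa but not in bull testis were called in near equal shares, 161 of 979 higher (16.4%) and 150 lower (15.3%). Those raised in trachea, another ciliated lining, were more often lower (336 of 1603, 21.0%) than higher (145, 9.05%). Those raised in lung were higher in 434 of 3375 (12.9%) and lower in 607 (18%), and those raised in bull testis but in neither nasal mucosa nor lung were higher in 312 of 3138 (9.94%) and lower in 283 (9.02%), beside 8.08% and 11.8% of all genes tested.

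Genes raised in myometrium, cervix and vagina together were lower in the upper oviduct more often than higher. Those at least 1 log2 unit above the outside median in myometrium, cervical lining and vaginal fornix together numbered 605, of which 600 were tested. Of these 45 (7.5%) were higher and 237 (39.5%) lower, with a median difference of -0.85. The mean level of the list in log2(FPKM + 1) was 4.25 and 4.12 in ampulla, 3.87 and 4.12 in infundibulum, and 5.10, 4.85 and 4.87 in endometrium, with no overlap. Genes raised in myometrium but in neither cervix nor vagina were higher in 79 of 1447 (5.46%) and lower in 264 (18.2%). Over all genes tested the shares were 8.08% and 11.8%. Genes raised in cervix and vagina but not in myometrium moved both ways, with 207 of 1007 higher (20.6%) and 250 lower (24.8%).

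The number of genes detected was also counted per library. Genes at 1 FPKM or more numbered 13553 and 13265 in ampulla, 13356 and 13029 in infundibulum, and 13868, 13787 and 13471 in endometrium. The mean was 13301 ± 217 in ampulla and infundibulum (SD, n = 4) and 13709 ± 210 in endometrium (SD, n = 3), a difference of -407.9 (two-sided exact permutation test, p = 0.11; the smallest p possible with 35 arrangements is 0.057, so the design cannot reach 0.05). The 10 most abundant genes held 14.0% and 14.7% of FPKM in ampulla, 9.92% and 11.8% in infundibulum, and 9.39%, 8.54% and 11.4% in endometrium, and the groups overlapped.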

How the data were processed

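RNA was extracted with Trizol, per the labels' protocols. The authors deposited FPKM per gene and library, per the file headers, and used HISAT2, StringTie and the genome build UMD3.1, per the submitters' processing notes. For annotation, filters and tool versions no source used here gives details. Low values show no common step that would stand for 1 read, so depth is unknown, no counts were recovered and no count model was run. A value of exactly 0 is called listed at 0. FPKM is relative within a library, so an abundant gene lowers the rest.

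Tissue labels gave the groups. Genes with FPKM of at least 1 in at least 3 of the 7 libraries were fitted as log2(FPKM + 1) with limma 3.58.1 in R 4.3.3 (4 libraries against 3; two-sided, with a trended prior variance). P-values were adjusted by Benjamini-Hochberg over the whole set tested. Calls needed an adjusted p under 0.05 and a difference of at least 1. The segment comparison was a contrast of ampulla and infundibulum in a model of 3 group means over the same 7 libraries. The endometrium libraries thus gave part of its spread. The fits were checked on simulated data first. Other steps used Python 3.11.15 with numpy 2.4.6, pandas 2.3.3 and scipy 1.17.1.

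Members, lists and tests were chosen with earlier results of these data known. The named genes are the 2 called identifiers with the largest positive and the 2 with the largest negative difference without overlap of groups. The available gene table (ARS-UCD2.0) paired 0 of 24616 identifiers with a symbol, so planned lists of named genes, cell type markers and sequences were not used. A list of genes led by a tissue gains from the filter, since a gene absent from the endometrium passes only where the oviduct expresses it. Alternatives were a pseudocount of 0.1, other filters, rescaling, the spread of all 94 libraries, side as a covariate, 1 segment alone, the isthmus added, no variance trend, and each library left out. The order along the tube with the ipsilateral isthmus was added after seeing the data.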

Additional observations from a re-analysis of the deposited data

Results flagged for a closer look

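The difference from endometrium was not the same in ampulla and infundibulum for 498 of the 2802 genes called against endometrium, by limma's test of ampulla against infundibulum (Benjamini-Hochberg adjusted p under 0.05 and a difference of at least 1). Over all 14065 genes tested, 1088 (7.74%) were called so. Calls between the segments rested on single libraries, and with the spread of all 94 libraries 131 of all genes tested were called.

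The contralateral isthmus, which was in neither group, was above all 3 endometrium libraries in 62.2% of the genes higher in ampulla and infundibulum, against 25.6% of all genes tested. A rise of this kind was not particular to the isthmus, as the call favours genes low in endometrium. The posterior pituitary was above them in 52.0%, against 25.9%, but the myometrium in 22.6%, against 21.3%.

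No library of the 4 passed Dixon's critical value of 0.829 in the 12 tests made. Chance flags about 1 in 20 such groups. With 4 values the test finds only a wide gap, so it does not show that the libraries are alike. The ipsilateral infundibulum had 1703 FPKM of ENSBTAG00000005973, beside 15461 to 29373 FPKM in the other ampulla and infundibulum libraries.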

How the results depend on the processing

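With the spread taken from all 94 libraries 1227 genes were called, 626 higher and 601 lower in ampulla and infundibulum. With the isthmus added 1089 were called, 130 higher and 959 lower, and with side as a covariate 1925 were called, 703 of them higher. Leaving out 1 library gave 2177 to 3174 called genes. Between the segments 312 genes were called without the filter, 131 with the spread of all 94 libraries, and 69 to 1965 with 1 library left out. No difference of a named gene changed sign in the alternatives run, but balances of counts did. Quantile normalization and the spread of all 94 libraries gave more higher than lower genes. The balance between the segments turned under both settings as well. Quantile normalization gave 564 genes higher in ampulla and 575 in infundibulum, and the spread of all 94 libraries 16 and 115. The bull testis list turned with the isthmus added. With the isthmus added, ENSBTAG00000005973 (7.41; limma adjusted p = 0.14), ENSBTAG00000024849 (7.17; 0.16) and ENSBTAG00000004796 (-5.26; 0.15) were no longer called; all 4 named genes stayed called in all other alternatives. In the bull testis list, adding the isthmus gave 11 higher and 107 lower genes, and side as a covariate 178 and 93; without 1 library in turn it had 235 to 362 higher and 96 to 170 lower. The list of bull testis, nasal mucosa and lung gave 4 and 4 with the isthmus added, and 9 higher and 2 lower with the spread of all 94 libraries. The causes were not tested. The labels give no replicate numbers; side, named by 6 libraries, was the only pairing run. The unknown depth limits genes of low FPKM, and 2 or 3 libraries a segment or tissue limit every test.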

Other observations

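Bull testis stood nearest to ampulla and infundibulum among the libraries outside the 7 for the higher genes, at a median position of 0.32 between the endometrium mean (0) and the mean of ampulla and infundibulum (1). Its 25th to 75th percentile ran from -0.40 to 1.22. It was above all 3 endometrium libraries in 57.9% of the higher genes, against 35.5% of all genes tested. The contralateral isthmus stood at 0.19, the pituitary stalk with median eminence at 0.17, the posterior pituitary at 0.14 and the pineal gland at 0.11.

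How widely a gene was expressed outside the tract went with how often it was called. Genes at 1 FPKM or more in 74 to 82 of the 82 outside libraries were higher in 270 (3.23%) and lower in 599 (7.16%) of 8362. Those at that level in 41 to 73 outside libraries were higher in 305 (8.81%) and lower in 562 (16.2%) of 3462. Those in 9 to 40 were higher in 399 (20.8%) and lower in 435 (22.6%) of 1921. Of 8660 genes in 0 to 8 outside libraries 320 passed the filter, with 162 higher and 70 lower, and the filter itself favours called genes there. Genes that no outside group led by 2 log2 units were called least of these sets, with 217 higher (2.88%) and 481 lower (6.38%) of 7540.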
